A study of Homo sapiens with 4 samples.

Results

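The replication genes examined here were 46 genes that license origins, unwind and copy DNA, and supply its building blocks, chosen by gene symbol from a fixed list. All 46 were found among the 15942 genes of the deposited count table, and all 46 passed the filter on low counts. They fell into 9 licensing genes, 13 genes of the helicase and its activation, 20 polymerase and fork genes, 3 genes of nucleotide supply, and UHRF1, which carries DNA methylation through replication. The RNA was that of H9, an established line of human embryonic stem cells, grown on Matrigel in E8-supplemented medium. The 2 control libraries came from cells given an siRNA against luciferase (siLuc), which has no target in human cells, and the 2 siUPF1 libraries from cells given one against UPF1. The UPF1 protein is a helicase acting on RNA and the central factor of nonsense-mediated decay (NMD), which removes transcripts with a premature stop. The treatment label, the same for the 4 libraries, further mentions actinomycin D, which blocks transcription, and an siRNA against UPF3A, and gives no time for any library. The labels do not say whether the paired libraries were grown as separate cultures. The p-values therefore reflect the spread of these libraries alone, and that spread may be technical.

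DNA replication begins when the origin recognition complex (ORC), with CDC6 and CDT1, loads the MCM2-7 ring onto DNA in the G1 phase, a step called licensing, and geminin (GMNN) blocks CDT1 once S phase has begun. CDC45 and the GINS complex then join MCM2-7 into the active helicase, and polymerase alpha with primase, polymerases delta and epsilon, the sliding clamp PCNA and its loader RFC, and the single-strand binder RPA copy the strands. Embryonic stem cells cycle fast and spend much of their time in S phase, and the transcription factors of the E2F family are known to drive many of these genes. Levels in bulk RNA cannot tell fewer cells in S phase from less RNA per cell.

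Promoter letters are shown for 4 of the 14 members with an E2F match, the 3 of them that fell and 1 that did not pass, so the choice followed the expression calls. The stretches are the 250 bases before the start of each gene, from RefSeq on GRCh38.p14, written 5′ to 3′ on the gene's strand, with matches to the E2F motif in capitals (TTTGGCGC, TTTCCCGC, TTTGCCGC or TTTCGCGC on either strand). They lie at chr2:135876444-135876693 for MCM6, chr6:52284743-52284992 for MCM3, chr7:100101398-100101647 for MCM7, all on the minus strand, and chr19:4909251-4909500 on the plus strand for UHRF1. MCM6, MCM3 and UHRF1 were lower after UPF1 knockdown, and MCM7 did not pass the test.
MCM6: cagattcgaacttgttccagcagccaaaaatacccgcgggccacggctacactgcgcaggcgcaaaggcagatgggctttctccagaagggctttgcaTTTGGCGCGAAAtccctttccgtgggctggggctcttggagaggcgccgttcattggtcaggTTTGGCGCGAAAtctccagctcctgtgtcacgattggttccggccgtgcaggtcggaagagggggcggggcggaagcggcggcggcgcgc
MCM3: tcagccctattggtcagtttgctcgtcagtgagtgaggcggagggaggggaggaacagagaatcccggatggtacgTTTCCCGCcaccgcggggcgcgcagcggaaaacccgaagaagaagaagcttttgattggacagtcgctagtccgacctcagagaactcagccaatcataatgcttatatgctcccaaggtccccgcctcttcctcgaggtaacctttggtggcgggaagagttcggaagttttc
MCM7: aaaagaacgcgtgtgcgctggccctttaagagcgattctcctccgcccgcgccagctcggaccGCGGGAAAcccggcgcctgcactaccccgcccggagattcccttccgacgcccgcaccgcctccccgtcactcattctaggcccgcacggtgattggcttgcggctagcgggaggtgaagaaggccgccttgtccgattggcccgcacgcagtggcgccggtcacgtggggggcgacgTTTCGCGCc
UHRF1: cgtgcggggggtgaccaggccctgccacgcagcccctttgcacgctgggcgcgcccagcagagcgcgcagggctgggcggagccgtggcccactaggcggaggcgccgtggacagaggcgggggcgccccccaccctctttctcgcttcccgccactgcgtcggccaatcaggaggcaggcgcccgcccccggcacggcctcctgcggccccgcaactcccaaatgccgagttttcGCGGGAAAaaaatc
MCM6 carried the 12-letter run that holds TTTGGCGC on one strand and TTTCGCGC on the other, overlapping by 4 letters, at 2 places, which begin 152 and 90 bases before the start. Of 40 members with a promoter in the RefSeq table, 14 (35%) held an E2F match in this window, against 4.22% of 11160 tested genes with a promoter and 2.79% of all 27305 promoters. A match occurred in 3 of the 6 promoters of members that fell and in 11 of the 34 promoters of members that did not pass. The CCAAT box, searched as CCAAT on either strand, occurred in 24 of the 40 (60%), against 34.7% of tested genes with a promoter. It occurred in all 6 promoters of members that fell and in 18 of the 34 of members that did not pass. Over all tested genes the shares were 38.2% of those that fell and 34.9% of those that did not pass. The difference among members was not tested. MCM4, MCM5, GINS4, POLD3, RPA2 and RPA3 had no entry.

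The siRNA target was lower in both siUPF1 libraries. UPF1 stood at 219 and 205 CPM (counts scaled to library size, with factors from the trimmed mean of M-values, TMM) in controls a and b and at 60.8 and 78.2 CPM in siUPF1 replicates 1 and 2, so that 28.7% and 36.9% of the control mean remained (log2 fold change -1.60, SE 0.07, adjusted p = 1.06e-102, edgeR quasi-likelihood test). Depth ranged from 8887239 to 11200973 counts, and the siUPF1 libraries were the deeper pair. The cells carried their labelled identity: all 13 pluripotency markers were tested, at 92.2 to 470.1 CPM on average, and summed to 2966 to 3159 CPM in the controls and 2591 to 2800 CPM in the siUPF1 libraries. Of these markers 7 fell, with a median log2 fold change of -0.20, and 3 fell with the read-density trend (given with the members' read density) removed, with a median of -0.10. They were densely covered, at a median of 0.687 reads per transcript base. Of 19 symbols for markers of differentiated lineages 7 were tested, summing to 39.9 to 43.3 CPM in each library. AFP rose (log2 fold change 0.88, SE 0.18), FOXA2 (-2.97, SE 0.37) and MIXL1 (-0.82, SE 0.25) fell, and the other 4 did not pass. All 7 were low, at 2.55 to 11.9 CPM on average. Of 8 fibroblast and feeder markers 4 were tested, and COL1A1, COL1A2, THY1 and PDGFRB together summed to 531 to 546 CPM in the controls and 543 to 565 CPM after UPF1 siRNA. Of these PDGFRB rose (0.40, SE 0.09) and the other 3 did not pass. The part of these markers in the results on replication genes was not tested.

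Replication genes changed little after UPF1 knockdown, and most of the shift was downward. Of 46 members, 8 fell (17.4%), 1 rose (2.17%) and 37 did not pass at 0.05 (quasi-likelihood test of edgeR, p-values adjusted by Benjamini-Hochberg over 15557 genes). Over all genes tested 9.14% were lower and 16.8% higher, 25.9% in either direction. The fold change was negative for 36 members and positive for 10, with a median of -0.10 on the log2 scale against -0.01 over all genes tested. No member moved by more than 1.23-fold, and 27 moved by less than 1.1-fold. The standard errors of the 46 log2 fold changes lay between 0.07 and 0.13. The 8 that fell were MCM3, MCM4, MCM5, MCM6, MCM10, GINS1, RRM1 and UHRF1, lower by 11.7% to 18.6%, and the 1 that rose was RPA2, higher by 21.9%. Both siUPF1 libraries lay below both controls for 31 members and above both for 6, where all tested genes gave 31.1% below and 32.3% above.

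The calls depended on single libraries, and not on the controls alone. Those of MCM3, MCM4, MCM5, MCM6 and RRM1 also depended on siUPF1 replicate 2. Without that library the median log2 fold change of the helicase genes was -0.09. It was -0.20 without siUPF1 replicate 1 and -0.15 with all libraries. With control a left out, 0 of the 46 passed in edgeR, where 1 higher and 3 lower had an unadjusted p under 0.05, and with control b left out 2 passed, MCM4 and UHRF1. DESeq2 called 3, all lower: MCM4, GINS1 and UHRF1, beside 467 lower and 1280 higher of all 15942 genes. Its unadjusted p was under 0.05 for 9 lower and 1 higher, beside 1270 and 2168 of all genes. Fewer genes were called over the whole table by DESeq2 and with either control left out. Whether the members lost more calls than other genes was not tested.

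**Figure D1:**
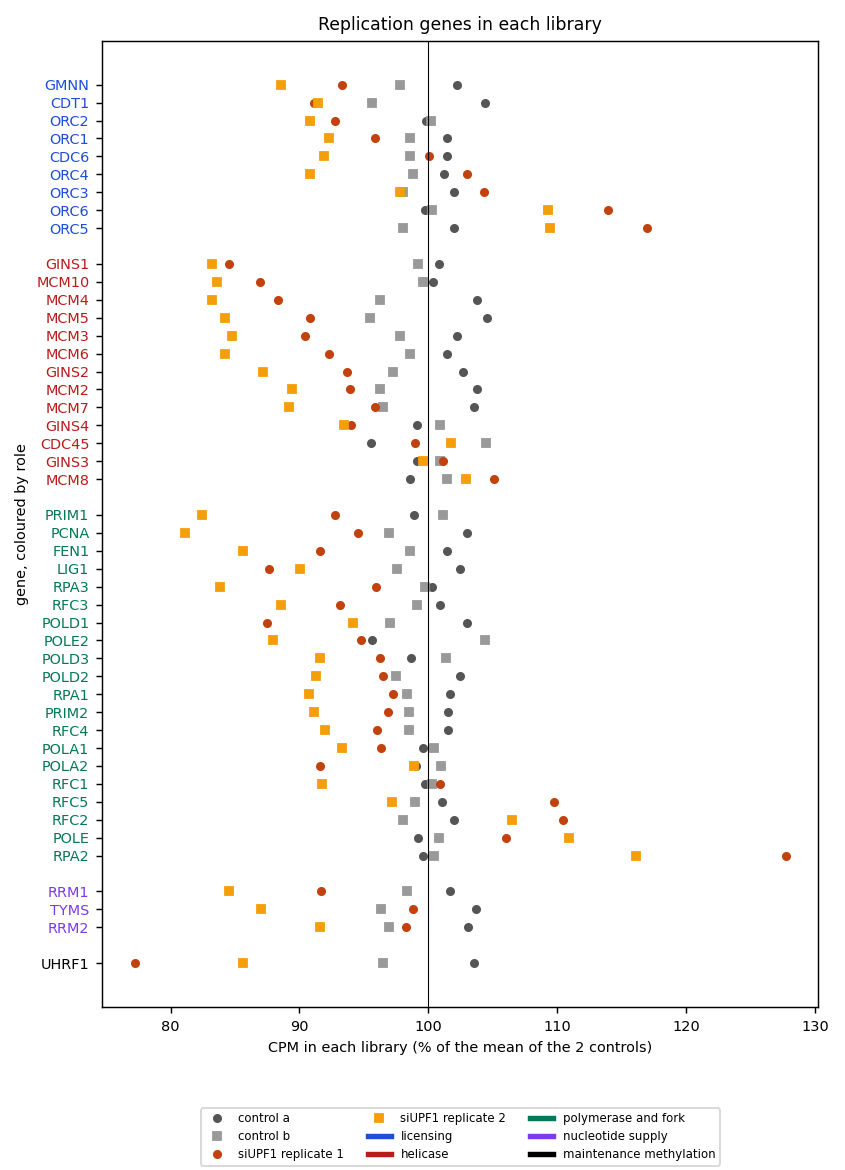
CPM of each of the 46 genes in each library, as a percentage of the mean of the 2 controls (x axis), with genes grouped by role and ordered by fold change (y axis). Circles and squares are single libraries. UHRF1 and most helicase genes lie left of both controls in both siUPF1 libraries, and RPA2 lies right of both.

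The replicative helicase held most of the genes that fell. Of its 13 genes 6 fell and 7 did not pass, with a median log2 fold change of -0.15. All 6 subunits of the MCM2-7 ring, the motor of the helicase, lay below both controls in both siUPF1 libraries, and 4 of them passed the test. Over all genes tested 31.1% lay below both controls in this way. The share was 51.9% at 0.5 to 0.75 reads per transcript base, where MCM2, MCM3, MCM5 and MCM7 lay. At 0.25 to 0.5, where MCM4 and MCM6 lay, it was 38.4%. MCM4 stood at 252 and 234 CPM in controls a and b and at 215 and 202 CPM in siUPF1 replicates 1 and 2 (log2 fold change -0.22, SE 0.07, adjusted p = 0.0106, edgeR quasi-likelihood test). MCM3 stood at 229 and 219 CPM in the controls and at 203 and 190 CPM after UPF1 siRNA (-0.19, SE 0.07, adjusted p = 0.0311). Each siUPF1 library was lower than each control for these genes, and replicate 2 was the lowest of the 4.
MCM5 went from 173 and 158 CPM to 150 and 140 CPM (-0.19, SE 0.07, adjusted p = 0.0286). MCM6 went from 184 and 179 CPM to 167 and 153 CPM (-0.18, SE 0.07, adjusted p = 0.0418). The other subunits did not pass: MCM2 stood at 207 and 192 CPM in the controls and at 188 and 179 CPM in the siUPF1 libraries (-0.13, SE 0.07, adjusted p = 0.186). MCM7 stood at 193 and 180 CPM and at 179 and 166 CPM (-0.11, SE 0.07, adjusted p = 0.247). The 6 fold changes spanned 0.11 on the log2 scale with an SE of 0.07 each, so that the subunits were not ordered beyond their error. Summed over the ring, the level was 1239 and 1162 CPM in controls a and b and 1102 and 1029 CPM in siUPF1 replicates 1 and 2.

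Of the factors that turn the loaded ring into a moving helicase, MCM10 and GINS1 fell. MCM10, which binds the ring and is needed for its activation, stood at 134 and 132 CPM in the controls and at 116 and 111 CPM in the siUPF1 libraries (-0.23, SE 0.07, adjusted p = 0.00699, edgeR quasi-likelihood test). GINS1, a subunit of the GINS complex, went from 128 and 126 CPM to 107 and 105 CPM (-0.25, SE 0.07, adjusted p = 0.00272). For both genes the libraries of a group were close together and the groups did not overlap. DESeq2 called GINS1 and did not call MCM10.
The other 3 GINS subunits did not pass. GINS2 stood at -0.15 (SE 0.08), GINS4 at -0.09 (SE 0.07) and GINS3 at 0.00 (SE 0.08) on the log2 scale. GINS3 was at 57.4 and 58.4 CPM in the controls and at 58.5 and 57.6 CPM in the siUPF1 libraries. CDC45, the remaining partner of the active helicase, stood at 41.1 and 44.9 CPM and at 42.5 and 43.7 CPM, with overlapping groups (0.00, SE 0.09). MCM8, a relative of the ring subunits known for a role in homologous recombination, stood at 0.06 (SE 0.07). Whether GINS1 differed from the other GINS subunits was not tested.

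No licensing gene passed. Of 9 genes 0 passed in edgeR and 0 had an unadjusted p under 0.05, and DESeq2 gave 0 in both respects. Their log2 fold changes had a median of -0.06. CDT1, the loader of the MCM ring, stood at 103 and 94.7 CPM in the controls and at 90.2 and 90.6 CPM in the siUPF1 libraries (-0.13, SE 0.07, adjusted p = 0.189). Its inhibitor GMNN stood at 59.5 and 57.0 CPM and at 54.3 and 51.6 CPM (-0.14, SE 0.08, adjusted p = 0.234). The loader and its inhibitor thus had fold changes of similar size and sign, neither past the test. CDC6, the ATPase that works with ORC, stood at 137 and 133 CPM and at 135 and 124 CPM, with overlapping groups (-0.06, SE 0.07).
The 6 ORC subunits had a median log2 fold change of -0.02. The largest values were positive. ORC5 stood at 41.5 and 39.9 CPM in the controls and at 47.6 and 44.5 CPM in the siUPF1 libraries (0.18, SE 0.09, adjusted p = 0.145, edgeR quasi-likelihood test). ORC6 stood at 58.9 and 59.3 CPM and at 67.3 and 64.6 CPM (0.16, SE 0.08, adjusted p = 0.145). For these 2 subunits both siUPF1 libraries were above both controls, whereas for ORC1 (-0.09, SE 0.07) and ORC2 (-0.12, SE 0.07) both were below. The shares over all genes tested were 32.3% above and 31.1% below. ORC3 (0.02, SE 0.07) and ORC4 (-0.05, SE 0.07) had overlapping groups.

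Of the 20 polymerase and fork genes 1 rose, 0 fell and 19 did not pass in edgeR, and the median log2 fold change was -0.09. An unadjusted p under 0.05 was found for 1 higher and 5 lower in edgeR, and DESeq2 called 0 (1 higher and 1 lower unadjusted). RPA2, the middle subunit of the RPA trimer that coats single-stranded DNA, stood at 63.5 and 64.0 CPM in the controls and at 81.4 and 74.0 CPM in the siUPF1 libraries (0.28, SE 0.08, adjusted p = 0.0025, edgeR quasi-likelihood test). The siUPF1 libraries were above both controls, replicate 1 the more so. Its partners had negative values: RPA1 stood at 154 and 149 CPM and at 147 and 138 CPM (-0.09, SE 0.07), and RPA3 at 22.2 and 22.0 CPM and at 21.2 and 18.5 CPM (-0.16, SE 0.13). RPA2 was 1 of 8 members with a pseudogene of its own name in GENCODE release 29 (3 for RPA2), and the labels do not state how reads shared with such copies were counted.
PCNA, the sliding clamp, stood at 63.6 and 59.9 CPM in the controls and at 58.3 and 50.1 CPM in the siUPF1 libraries (-0.19, SE 0.08, adjusted p = 0.0774). Without siUPF1 replicate 1 PCNA stood at -0.30 and passed (adjusted p = 0.00428, edgeR quasi-likelihood test), and without replicate 2 at -0.08 (adjusted p = 0.569). The clamp loader subunits ranged from -0.14 (SE 0.07) for RFC3 to 0.12 (SE 0.08) for RFC2, with RFC4 at -0.09, RFC1 at -0.05 and RFC5 at 0.05, and none passed.
In polymerase alpha and primase, which start each new strand, all 4 subunits lay below both controls and none passed. Of all genes tested 31.1% lay below both controls. PRIM1, the catalytic primase subunit, stood at 54.0 and 55.2 CPM and at 50.6 and 45.0 CPM (-0.19, SE 0.09, adjusted p = 0.0820, edgeR quasi-likelihood test). Without siUPF1 replicate 1 PRIM1 stood at -0.28 and passed (adjusted p = 0.0117), and without replicate 2 at -0.11 (adjusted p = 0.426). POLA1 (-0.08), POLA2 (-0.07) and PRIM2 (-0.09) had smaller values. The 3 subunits of polymerase delta, the lagging-strand enzyme, that were among the members also lay below both controls. POLD1 stood at -0.14 (SE 0.07, adjusted p = 0.137, edgeR quasi-likelihood test) and POLD2 and POLD3 at -0.09 each. POLD1 ranged from -0.19 to -0.09 over the alternative analyses, and neither DESeq2 nor limma-voom called it.
Polymerase epsilon, the leading-strand enzyme, was split between its 2 subunits among the members. Its catalytic subunit gene POLE stood at 202 and 205 CPM in the controls and at 216 and 226 CPM in the siUPF1 libraries (0.12, SE 0.07, adjusted p = 0.224), while POLE2 stood at 40.4 and 44.1 CPM and at 40.0 and 37.1 CPM (-0.13, SE 0.10). Neither passed, and the difference between them was not tested. The enzymes that trim and join Okazaki fragments came close to the threshold. FEN1, the flap nuclease, stood at 118 and 115 CPM and at 107 and 99.7 CPM (-0.17, SE 0.07, adjusted p = 0.0546). LIG1, the ligase, stood at 141 and 134 CPM and at 121 and 124 CPM (-0.17, SE 0.07, adjusted p = 0.0588, edgeR quasi-likelihood test). Over the alternative analyses FEN1 ranged from -0.22 to -0.12 and LIG1 from -0.21 to -0.14. Both were called when scaled by library size alone, and neither by DESeq2 or limma-voom.

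Of the 3 genes that supply deoxynucleotides 1 fell. RRM1, the large subunit of ribonucleotide reductase, stood at 149 and 144 CPM in the controls and at 134 and 124 CPM in the siUPF1 libraries (-0.18, SE 0.07, adjusted p = 0.0374, edgeR quasi-likelihood test). Its partner RRM2, the small subunit, stood at 166 and 157 CPM and at 159 and 148 CPM, with overlapping groups (-0.07, SE 0.07). TYMS, thymidylate synthase, stood at 27.7 and 25.7 CPM and at 26.4 and 23.3 CPM (-0.11, SE 0.12).

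UHRF1 had the largest fall of the 46 in this fit. This protein reads hemimethylated DNA behind the fork and recruits the methyltransferase DNMT1. It stood at 137 and 128 CPM in the controls and at 102 and 114 CPM in the siUPF1 libraries (-0.29, SE 0.07, adjusted p = 0.000333, edgeR quasi-likelihood test). Replicate 1 was the lower of the siUPF1 libraries, unlike most other members. UHRF1 was also called by DESeq2, by limma-voom and with the read-density trend removed, and missed when control a was left out, which left 1 control. Its log2 fold change ranged from -0.37 to -0.22 over the alternative analyses. DNMT1 itself, on the list of other fork genes and named after its values were seen, stood at 284 ± 12.9 CPM in the controls and 255 ± 3.53 CPM after UPF1 siRNA (SD, n = 2 per group) and did not pass (-0.16, SE 0.07, adjusted p = 0.0860, edgeR quasi-likelihood test).

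**Figure D2:**
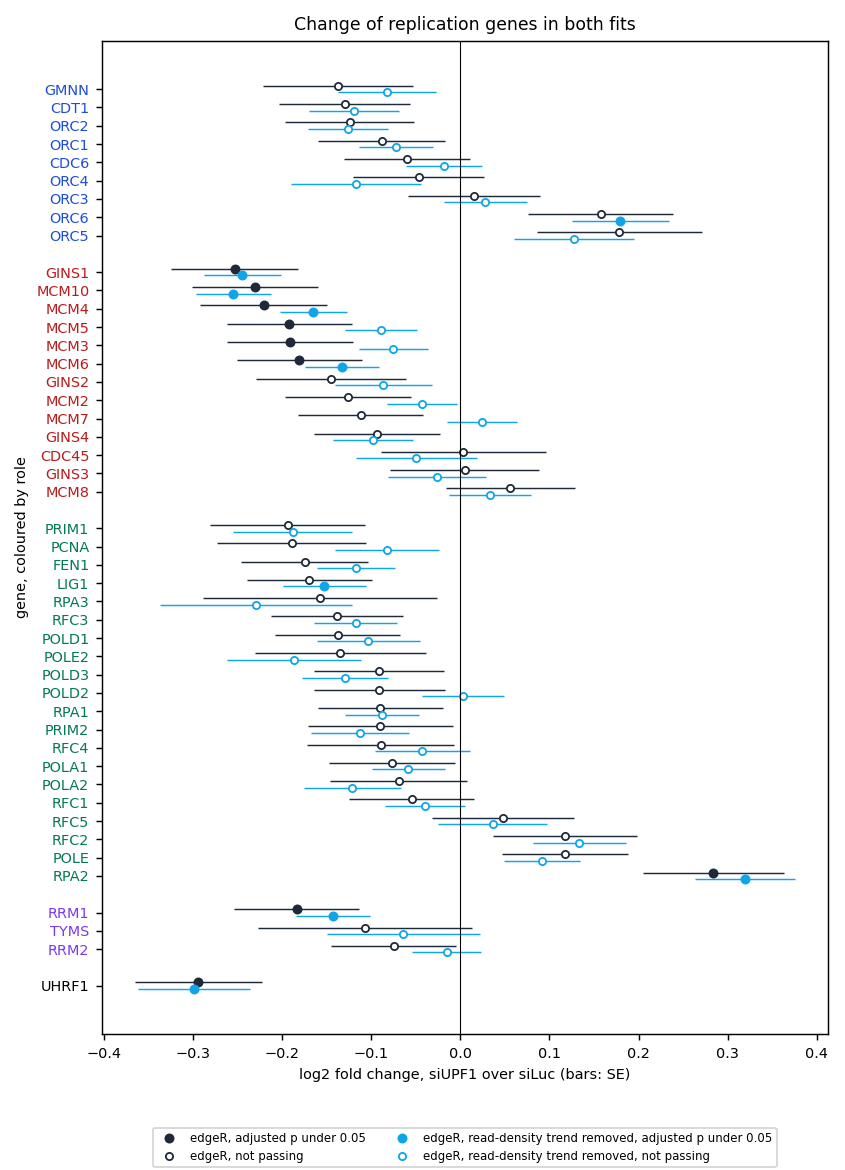
Log2 fold change of each gene, siUPF1 over siLuc (x axis, bars are the SE), in the edgeR fit (dark) and in the fit with the read-density trend removed (blue), with filled points past an adjusted p of 0.05. Values lie between -0.30 and 0.32, and MCM3, MCM5 and MCM7 move toward or past 0 in the second fit.

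Replication genes were densely covered by reads, and dense genes as a class were lower in the siUPF1 libraries. Reads per transcript base (the mean count over the 4 libraries divided by transcript length) had a median of 0.371 over the members and 0.172 over all genes tested, and no gene with at least 100 counts exceeded 1.12. Of the 46 members 39 (84.8%) lay at 0.25 or more, against 34.9% of all genes tested. The median log2 fold change of all genes was 0.03 from 0.1 to 0.25 reads per base, -0.04 from 0.25 to 0.5 and -0.11 from 0.5 to 0.75. The members' medians in the same ranges were -0.07 (7 genes), -0.09 (33 genes) and -0.16 (6 genes). In the middle range 6 of 33 members fell, against 7.62% of 4359 genes, and in the densest 2 of 6 (MCM3 and MCM5), against 13.1% of 962 genes. Both siUPF1 libraries lay below both controls for 4 of 7, 21 of 33 and 6 of 6 members in these ranges, in order. The shares of all genes were 26.9%, 38.4% and 51.9%.

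A second fit removed the trend of each library on read density. It called 7 members lower (15.2%) and 2 higher, beside 13.4% and 13.9% of all genes tested. In the first fit the shares called lower were 17.4% of members and 9.14% of all genes. Of the 8 members that fell in the first fit 6 were called lower again, and RPA2 was called higher again (0.32, adjusted p = 0.00436, edgeR quasi-likelihood test). MCM3 (-0.08, adjusted p = 0.181) and MCM5 (-0.09, adjusted p = 0.132) no longer passed, and MCM7 stood at 0.02. The MCM2-7 ring had a median of -0.08 in this fit against -0.19 in the first. LIG1 (-0.15, adjusted p = 0.0409) and ORC6 (0.18, adjusted p = 0.0401) passed in it. GINS1 (-0.24), MCM10 (-0.25) and UHRF1 (-0.30), which lay between 0.271 and 0.354 reads per base, kept fold changes within 0.03 of those of the first fit.

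**Figure D3:**
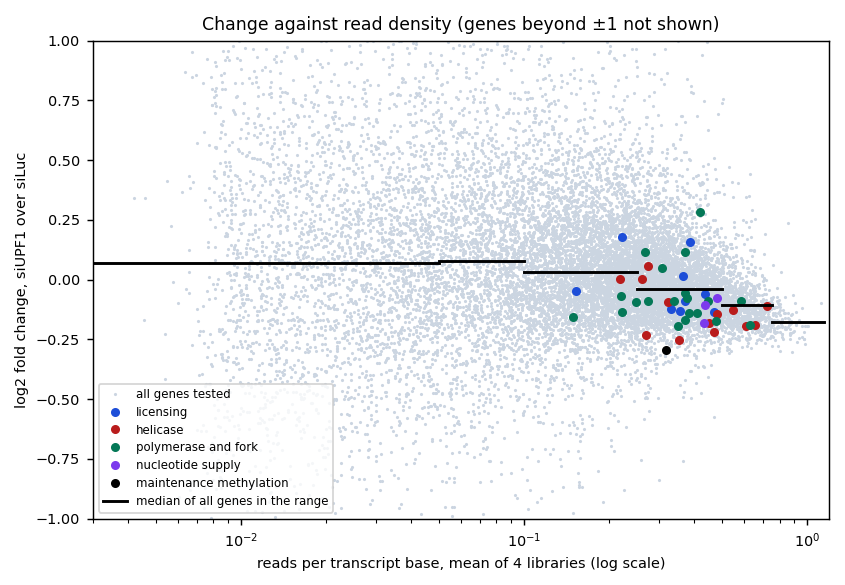
Log2 fold change (y axis) against reads per transcript base on a log scale (x axis) for all genes tested (grey) and the 46 replication genes (coloured by role), with bars at the median of all genes in each range. The median is 0.07 in the sparsest range and -0.18 in the densest, and 39 of the 46 genes lie at 0.25 or more.

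The summed level of the 46 genes also ran with library depth. Controls a and b stood at 5228 and 5078 CPM, and siUPF1 replicates 1 and 2 at 4914 and 4704 CPM. Each of these libraries was deeper than the one before it. Within groups, 32 of 46 members were lower in control b than in control a, and 39 were lower in siUPF1 replicate 2 than in replicate 1. Of all 15557 genes tested, 7771 and 7831 were lower in these comparisons, in order. The helicase group stood at 102% and 98.0% of the control mean in controls a and b and at 92.3% and 87.7% in siUPF1 replicates 1 and 2. The licensing group stood at 99.5% and 94.2% in the siUPF1 libraries, and the polymerase and fork group at 97.6% and 94.2%. Control b, with 9937231 counts, and siUPF1 replicate 1, with 10058515, were closest in depth. Between these 2 libraries 32 of 46 members (69.6%) were lower in the siUPF1 library, against 50% of all genes tested, with a median log2 ratio of -0.06 against 0.00. All 8 genes called lower were lower in this pair too, by -0.07 (MCM5) to -0.32 (UHRF1), and RPA2 was higher by 0.35. A single pair of libraries has no replicate check.

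**Figure D4:**
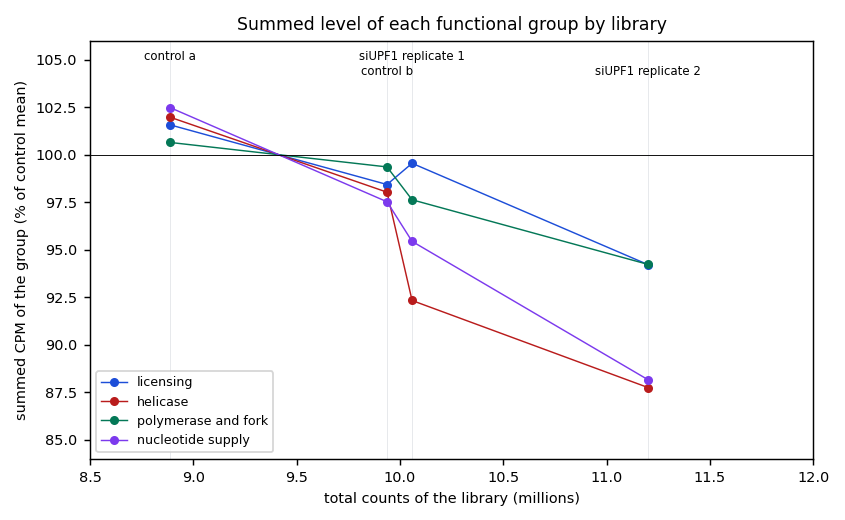
Summed CPM of 4 functional groups as a percentage of the control mean (y axis) against total counts of the library (x axis); each point is 1 library and lines join the libraries of a group in order of depth. The helicase group falls to 92.3% and 87.7% in the siUPF1 libraries, and the licensing group stays at 99.5% and 94.2%.

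Levels between members were compared per transcript length, as CPM per kilobase in the controls, and their order depended on which length was used. With the length behind the deposited RPKM values, MCM7 stood at 75.1 ± 3.74 (SD, n = 2), MCM3 at 70.1 ± 2.19, PCNA at 67.3 ± 2.87, MCM5 at 65.3 ± 4.18 and POLD2 at 60.4 ± 2.12. The derived length was a median of 0.970 of the longest coding transcript in GENCODE release 29, but 0.675 for PCNA, 0.718 for MCM5, 0.748 for POLD2 and 0.805 for MCM7. With that longest transcript as the length, an alternative chosen after seeing the data, MCM3 stood highest at 69.8 ± 2.18, followed by MCM7 at 60.4 ± 3.01, MCM4 at 58.1 ± 3.10 and MCM2 at 55.2 ± 2.96. PCNA, MCM5 and POLD2 then stood at 45.4, 46.9 and 45.2. MCM3 was among the highest members with either length.
The ring subunits spanned 48.1 to 75.1 with the first length and 46.9 to 69.8 with the second. GINS1 (38.6 ± 0.435), GINS3 (25.9 ± 0.317) and CDC45 (21.8 ± 1.37) lay below that span with either length, while GINS2 stood at 50.6 ± 1.94 with the first and 22.3 ± 0.855 with the second. TYMS was as uncertain, at 45.5 and 16.1, with a derived length of 0.353 of the longest transcript. ORC4 stood at 15.6 and 14.3 and RPA3 at 15.8 and 10.9, low with either length.

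Calls among other genes of the replication programme went in both directions, some by more than any member. Over all genes tested 16.8% rose and 9.14% fell, and no list was tested against these shares. Of 16 origin firing factors 3 rose and 4 fell (median -0.06). DBF4B, an activator of the firing kinase CDC7, rose, with 79.0 ± 1.17 CPM in the controls and 105 ± 3.10 CPM after UPF1 siRNA (SD, n = 2 libraries in each; log2 fold change 0.41, SE 0.07, adjusted p = 4.62e-07, edgeR quasi-likelihood test). The S-phase cyclin gene CCNE2 rose from 23.5 ± 1.34 to 31.2 ± 1.62 CPM (0.41, SE 0.12), and MCM9, the partner of MCM8, rose from 50.5 ± 3.91 to 61.1 ± 5.59 CPM (0.27, SE 0.08). MCM9 did not pass with the read-density trend removed (0.19, adjusted p = 0.0668, edgeR quasi-likelihood test). Among the fallers, named after their values were seen, were CCNE1 (-0.23, SE 0.08) and CDC7 (-0.19, SE 0.07).
Of 27 other fork and Okazaki genes 7 fell and 0 rose (2 higher and 12 lower by edgeR's unadjusted p under 0.05; median -0.12), led by RMI2 (-0.30, SE 0.08) and the topoisomerase genes TOP2A (-0.26, SE 0.07) and TOP1 (-0.24, SE 0.07). Of 22 other genes of nucleotide supply 6 fell and 0 rose (0 up and 9 down unadjusted; median -0.12). DUT, which keeps uracil out of DNA, fell from 69.6 ± 0.411 to 54.5 ± 2.0 CPM (-0.35, SE 0.08, adjusted p = 0.000156, edgeR quasi-likelihood test), and SAMHD1, which degrades deoxynucleotides, fell by 0.29 (SE 0.08) on the log2 scale.
Of 18 E2F and RB family genes 1 rose and 2 fell (median -0.10). E2F3 fell from 164 ± 2.95 to 141 ± 1.43 CPM (-0.22, SE 0.07) and E2F1 from 82.5 ± 8.67 to 71.6 ± 3.93 CPM (-0.20, SE 0.08, adjusted p = 0.0409), and LIN54 rose (0.23, SE 0.08). E2F1 (adjusted p = 0.0611) and LIN54 (0.141) did not pass with the read-density trend removed (edgeR quasi-likelihood test). Of 18 replication checkpoint genes 1 rose and 1 fell (median 0.00): HUS1, a subunit of the checkpoint clamp, from 49.0 ± 0.368 to 67.6 ± 0.145 CPM (0.46, SE 0.08) and the kinase gene CHEK2 from 77.4 ± 0.544 to 63.6 ± 0.684 CPM (-0.28, SE 0.08), while BRCA2 stood at 0.16 (SE 0.07) and did not pass. Of 22 mitosis genes 7 fell and 0 rose (0 up and 14 down unadjusted; median -0.17), led by BUB1 (-0.26, SE 0.07), HMMR (-0.27, SE 0.07) and CDK1 (-0.22, SE 0.07). Over the first 5 lists and the mitosis list together, 5 of 123 rose and 27 fell, beside 16.8% and 9.14% of all genes tested. DESeq2 called 2 higher and 6 lower, beside 1280 and 467 of all 15942 genes. Without control a the medians of these lists lay between -0.13 and 0.04, and without control b between -0.21 and -0.05. The medians of the 6 lists lay between -0.17 and 0.00, beside -0.10 for the 46 members, and the difference was not tested.

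NMD annotation gave little that separated the members that moved. Of the 46 genes 18 (39.1%) had at least 1 transcript annotated as subject to NMD in GENCODE release 29, against 41.1% of 13476 coding genes tested. Such a transcript was annotated for 4 of the 8 genes that fell (MCM3, MCM4, MCM5 and RRM1) and not for RPA2. It was annotated for 14 of the 37 members that did not pass. Over all coding genes tested the shares were 29.5% of those that fell and 43.4% of those that rose. The difference among members was not tested. RFC2, with 7, had the most and stood at 0.12 (SE 0.08). Exons of 16 members overlap those of another gene on the other strand, RRM1 (RRM1-AS1), MCM7 (AP4M1) and TYMS (ENOSF1) among them, and 6 overlap a gene on their own strand. The labels do not state whether counting used strand, so the values of these members are uncertain to that extent.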

How the data were processed

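RNA of 2 siLuc and 2 siUPF1 libraries was extracted with Trizol for Illumina sequencing, per the labels' protocols. The authors deposited whole-number read counts per gene, without normalization, and RPKM values beside them (reads scaled to transcript length and depth), per the file headers. The authors used STAR, DESeq2 and the build hg19, per the submitters' processing notes. Both control columns carry 1 name, so they are called control a and control b, and 2 control RPKM columns were not used. Transcript length was derived from the RPKM values of the siUPF1 libraries.

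The test was edgeR 4.0.16 (glmQLFit, glmQLFTest, two-sided) in R 4.3.3 with TMM, filterByExpr (15557 genes kept, 385 left out) and Benjamini-Hochberg adjustment at 0.05 over all genes tested. The SE is the fold change divided by the square root of F. The 2 controls, and likewise the 2 siUPF1 libraries, were more unlike than sampling alone gives (chi-square over degrees of freedom 1.71 and 2.88). On simulated counts of the siUPF1 against siLuc comparison over 15491 genes the test found 92% of the 2-fold changes and 72% of the 1.41-fold changes and made 8 false calls. Smaller changes, such as those of the members, were not simulated. Alternatives were DESeq2 1.42.0, limma-voom (limma 3.58.1), RLE size factors, scaling by library size alone, no filter, 5 CPM in 2 libraries, an adjusted p of 0.1, each library left out, the read-density trend removed (loess, span 0.3) and genes under 0.25 reads per base only. A further one, chosen after seeing the data, took the longest coding transcript as length. The members, lists and tests were chosen with earlier results of these data known. Named were UPF1, every member, and for each other list the 3 genes with the smallest p, of which 1 is not reported here. Pseudocounts of 0.5 CPM entered ratios between 2 libraries over all genes.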

Additional observations from a re-analysis of the deposited data

How the results depend on the processing

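No paired analysis was possible because both control columns carry the same name, so replicate numbers could not be tied to control libraries. Over all genes DESeq2 called 1747, and leaving out a library gave 1996 to 4286, against 4035. Of the 46 members 9 were called, 3 by DESeq2, 0 among genes under 0.25 reads per base (7 members tested) and 0 to 12 with a library left out. Helicase calls numbered 6, with 2 by DESeq2, 0 under 0.25 reads per base (1 member tested) and 0 to 6 with a library left out. Licensing calls numbered 0, with 1 (ORC6) with the density trend removed and 0 with any library left out. Polymerase and fork calls numbered 1, with 3 by library size alone, 0 by DESeq2, 5 at an adjusted p of 0.1, 2 with the trend removed, 0 under 0.25 reads per base and 0 to 4 with a library left out. Nucleotide supply calls numbered 1, with 0 by DESeq2 and 0 to 1 with a library left out, and UHRF1 0 to 1. The 6 other lists gave 32 calls, 8 by DESeq2, 49 at an adjusted p of 0.1, 7 under 0.25 reads per base and 8 to 47 with a library left out. The cause of each difference was not tested, except that fewer genes or libraries enter where some are left out. UPF1 ranged from -1.80 to -1.44 with a library left out.

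Over single members, 497 alternative values kept direction and side of the threshold, 29 lost the call, 13 gained one and 20 changed sign, all 20 in genes that had not passed in either analysis. The values at an adjusted p of 0.1 came from the first fit, so they could only stay or gain a call. CDC45 stood at -0.0012 with RLE size factors, -0.0022 with library size alone, -0.00057 with DESeq2, -0.0013 without a filter, -0.049 with the trend removed and -0.049 under 0.25 reads per base, and GINS3 at -0.00070 with library size alone and -0.026 with the trend removed. MCM7 stood at 0.025 and POLD2 at 0.0032 with the trend removed. With a library left out, CDC45 ranged from -0.059 to 0.063, GINS3 from -0.0086 to 0.016, ORC3 from -0.031 to 0.062, ORC4 from -0.14 to 0.044, CDC6 from -0.12 to 0.0012, RFC1 from -0.12 to 0.013 and RFC5 from -0.040 to 0.13. At this depth and with 2 libraries a group the SEs were 0.07 or more, so small differences may have been missed.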
